A study of Mus musculus with 34 samples.

Results

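The 6 genes described here, *Umod*, *Slc12a1*, *Kcnj1*, *Bsnd*, *Ptger3* and *Casr*, are genes of the thick ascending limb of the loop of Henle, chosen by name from the 23509 genes of each count table. All 6 passed the filter on low counts, which left 15644 genes for testing in 34 whole-kidney libraries. *Pkd2*-KO mice (spelled Pdk2KO in the labels, *Pkhd1*/cre with floxed *Pkd2* alleles in the study's text, on C57BL6) lose *Pkd2* in kidney tubules, where *Pkhd1* sequence drives the Cre recombinase, and develop cysts early. They received subcutaneous PBS (PBS group, n = 11) or RGLS4326 at 20 mg per kg (RGLS4326 group, n = 11) on postnatal days (P) 10, 11, 12 and 19. RGLS4326 is an oligonucleotide inhibitor of miR-17. The labels assign more libraries to the PBS group than the study's text counts, and the labels were followed. Untreated wild-type C57BL6 mice (UNT group, n = 12) were not injected, so genotype and injection cannot be told apart against UNT. Polyadenylated RNA came from kidneys taken at P28, and a control oligonucleotide was not analysed here.

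The thick ascending limb takes salt back from the tubule without water and thereby builds the gradient that concentrates urine. Salt enters its cells through the cotransporter NKCC2 (*Slc12a1*, the target of loop diuretics), potassium returns to the lumen through the channel ROMK (*Kcnj1*), and chloride leaves toward the blood through channels that need the subunit barttin (*Bsnd*). The segment secretes uromodulin (*Umod*), an abundant urinary protein, and carries the prostaglandin E2 receptor EP3 (*Ptger3*) and the calcium-sensing receptor (*Casr*), which both dampen salt transport. Loss of *Slc12a1*, *Kcnj1* or *Bsnd* function in people gives Bartter syndrome, a salt-wasting disorder.

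Because RGLS4326 is directed at miR-17, its mature sequence is given first, from RefSeq (GRCm38.p6, chr14:115043684-115043706, plus strand), 5′ to 3′ with the seed, bases 2 to 8, in capitals.
miR-17-5p: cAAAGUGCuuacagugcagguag
For each gene the longest 3′UTR in the annotation was searched for matches to this seed (GCACTTT or CACTTTA). No match was found in *Umod* (506 bases), *Slc12a1* (1140 bases), *Kcnj1* (1737 bases), *Bsnd* (1590 bases), *Ptger3* (1933 bases) or *Casr* (771 bases). Of 14193 tested genes with an annotated 3′UTR, whose median length was 1150 bases, 21.2% held such a match.

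Since all 6 members were called lower in PBS than in UNT kidneys, the promoters of the pair with the most reads are also shown, from 250 bases before to 50 after the transcription start (RefSeq, GRCm38.p6). They are *Umod* (chr7:119479213-119479512, minus strand) and *Slc12a1* (chr2:125152350-125152649, plus strand), each in the direction of transcription, with the match to the AP-2 motif in capitals (*Umod* only).
Umod: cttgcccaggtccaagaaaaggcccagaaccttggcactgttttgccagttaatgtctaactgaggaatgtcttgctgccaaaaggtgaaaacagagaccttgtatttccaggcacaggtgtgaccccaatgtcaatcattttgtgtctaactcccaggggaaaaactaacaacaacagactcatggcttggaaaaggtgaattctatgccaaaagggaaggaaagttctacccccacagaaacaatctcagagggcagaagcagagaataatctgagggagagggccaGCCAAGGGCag
Slc12a1: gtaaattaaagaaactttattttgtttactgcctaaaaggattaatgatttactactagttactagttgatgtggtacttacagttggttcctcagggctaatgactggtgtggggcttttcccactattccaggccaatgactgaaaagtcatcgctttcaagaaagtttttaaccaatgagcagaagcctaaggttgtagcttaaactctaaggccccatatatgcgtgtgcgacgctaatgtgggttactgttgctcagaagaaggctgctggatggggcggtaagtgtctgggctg
A promoter was at hand for 5 of the 6 genes, *Bsnd* being the one without. The AP-2 motif, GCCNNNGGC on either strand, occurred once in *Umod*, at position 40 from the start, and in none of the other 4 (in 16.6% of 32851 promoters). The estrogen-related receptor motif, AAGGTCA on either strand, occurred in none of the 5 (in 4.7% of promoters).

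In GRCm38 (GENCODE M21), *Umod* lies at chr7:119462711-119479282 (minus strand), *Slc12a1* at chr2:125152505-125230002 (plus strand), *Kcnj1* at chr9:32372493-32399197 (plus strand), *Bsnd* at chr4:106483456-106492283 (minus strand), *Ptger3* at chr3:157566892-157645888 (plus strand) and *Casr* at chr16:36493696-36562141 (minus strand). Counts were over exons of whole genes. Exons of *Umod* overlap those of an antisense gene, Gm44588, so that reads of both cannot be told apart if strand was not used in counting. Exons of the other 5 members overlap no other gene.

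Libraries held 17603122 to 54981992 reads in genes, and every member had at least 348 reads in each. Levels are given as CPM, a gene's read count scaled by edgeR to a common library size, with sizes taken from reads in genes and adjusted by TMM. Differences are log2 fold changes from edgeR's quasi-likelihood test (two-sided), called where the Benjamini-Hochberg adjusted p over all 15644 genes was under 0.05. The deleted gene, *Pkd2*, was at 219.6 to 337.7 CPM in UNT, 98.03 to 214.5 CPM in PBS and 170.0 to 236.9 CPM in RGLS4326 kidneys, and its log2 fold change in PBS against UNT was -0.78 (SE 0.09, adjusted p = 1.4e-09). *Pkd2* also differed between the *Pkd2*-KO groups, at 0.39 (SE 0.09, adjusted p = 0.00439) in RGLS4326 against PBS, with 11 of 11 treated mice above the PBS mean, and its part in the treatment comparison was not tested. Reads in no gene made up 9.84 to 11.4% of reads in UNT, 5.18 to 9.0% in PBS and 4.94 to 12.0% in RGLS4326 libraries, and the 10 most abundant genes took 13.6 to 16.8%, 4.81 to 6.99% and 5.33 to 8.57% of reads in genes.

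In UNT kidneys *Umod* took 0.437% ± 0.0571 (SD, n = 12) of all reads in genes and ranked 11 by mean CPM, while *Slc12a1* took 0.167% ± 0.0337 (SD, n = 12) and ranked 30. Per kilobase of exon, mean levels in CPM per kb (± SD, n = 12) were 1816 ± 282.3 for *Umod*, 331.8 ± 75.1 for *Slc12a1*, 87.7 ± 7.49 for *Kcnj1*, 35.7 ± 4.75 for *Bsnd*, 13.4 ± 5.29 for *Casr* and 8.33 ± 1.38 for *Ptger3*. The secreted protein thus stood above the cotransporter, then came the channel genes and then the receptors. Neighbours in this order did not overlap in UNT mice except *Casr* and *Ptger3*, which kept the order in 11 of 12 mice. The means kept the same order in the other groups. In PBS mice the ranges of *Slc12a1* and *Kcnj1* overlapped (in order in 10 of 11 mice), as did those of *Bsnd* and *Casr* (11 of 11) and of *Casr* and *Ptger3* (10 of 11), and in RGLS4326 mice those of *Bsnd* and *Casr* (11 of 11). By mean CPM, *Umod* ranked 8 in PBS and 6 in RGLS4326 kidneys, and *Slc12a1* 213 and 105.

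**Figure D1:**
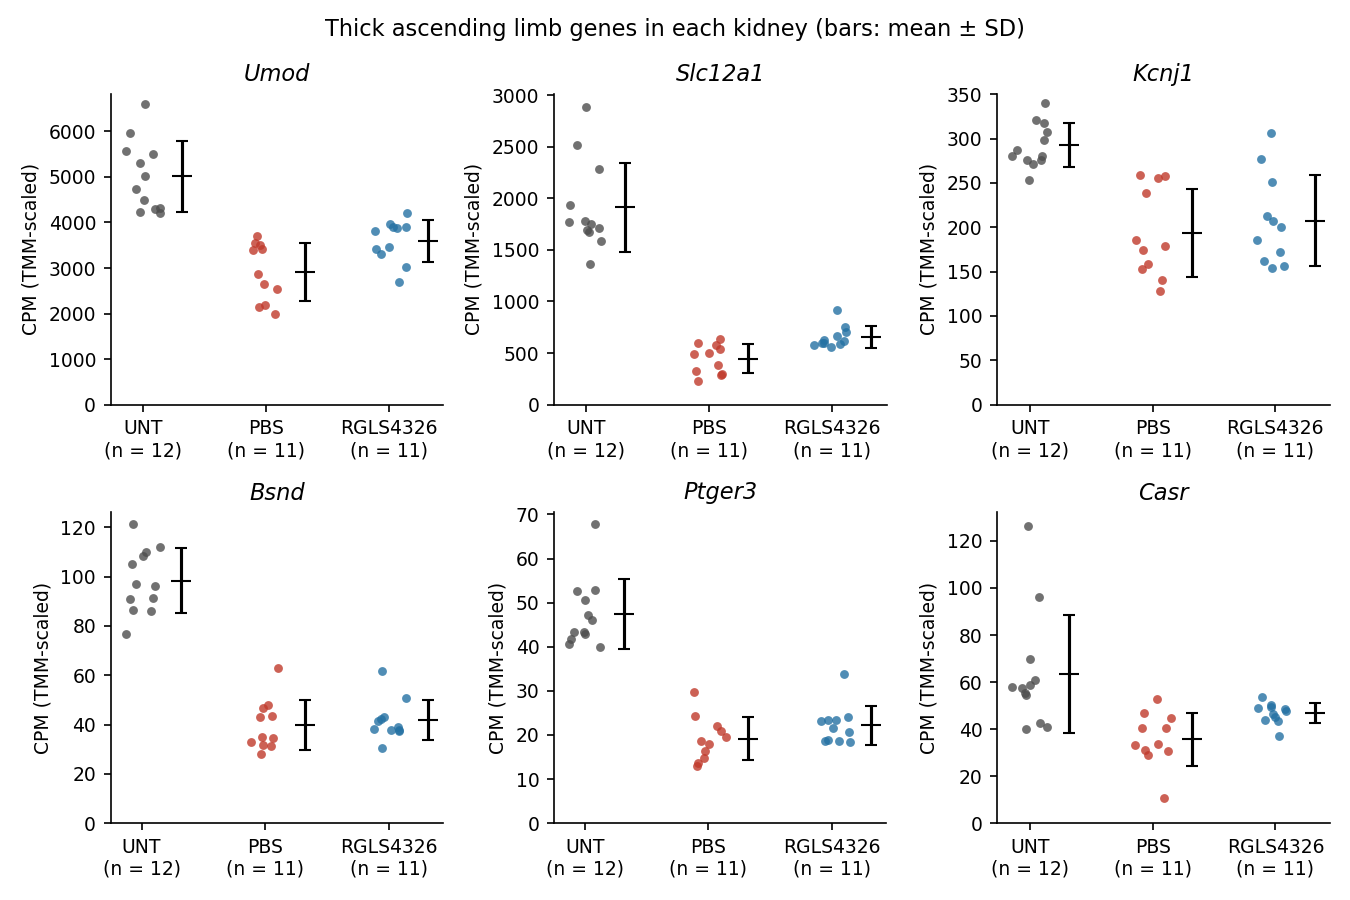
Level of each gene in every kidney, in TMM-scaled CPM, for UNT (n = 12), PBS (n = 11) and RGLS4326 (n = 11) mice, with the mean and SD of each group. For *Umod*, *Slc12a1*, *Bsnd* and *Ptger3* no PBS or RGLS4326 mouse reaches the lowest UNT mouse in CPM. As percentages of reads in genes, *Umod* and *Bsnd* overlap UNT in both groups. For every gene the PBS and RGLS4326 mice overlap.

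The comparison of PBS with UNT kidneys asked how the segment's transcripts stand in cystic kidneys. All 6 genes were called lower in PBS kidneys, *Slc12a1* by the most and *Kcnj1* by the least. Of all tested genes, 39.0% were called lower, 43.1% higher and 82.1% in either direction. For 4 of the 6 genes, no PBS mouse reached the lowest UNT mouse in CPM, as for 19.8% of all tested genes. As percentages of reads in genes, without TMM, the groups overlapped in 2 of these, *Umod* and *Bsnd*. *Umod* reached 0.4084% in PBS mouse 8 and was at 0.3592% in UNT mouse 4, and *Bsnd* was at 0.006946% in PBS mouse 8 and 0.006133% in UNT mouse 10. In whole kidney, fewer cells of the segment, less RNA per cell and reads of these genes from other cells cannot be told apart.

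*Slc12a1*, the gene of the cotransporter, was at 1365 to 2883 CPM in UNT mice, with a median of 1759 CPM, and at 233.4 to 635.3 CPM in PBS mice, with a median of 495.9 CPM. The groups were far apart, the highest PBS mouse being well below the lowest UNT mouse. The log2 fold change was -2.11 (SE 0.15, adjusted p = 2.74e-15), a 4.32-fold lower level, at percentile 3.38 of all tested genes. *Umod* was at 4210 to 6601 CPM in UNT mice, with a median of 4869 CPM, and at 1986 to 3711 CPM in PBS mice, with a median of 2862 CPM. In CPM these groups did not overlap either, but lay closer together. The log2 fold change was -0.79 (SE 0.11, adjusted p = 3.19e-08), a 1.73-fold lower level, at percentile 18.4.

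Both channel genes were lower in PBS kidneys. *Kcnj1* was at 252.8 to 340.2 CPM in UNT mice, with a median of 284.0 CPM, and at 128.3 to 258.9 CPM in PBS mice, with a median of 179.3 CPM. While 8 of 11 PBS mice were below every UNT mouse, the others reached into the UNT range. Its log2 fold change was -0.59 (SE 0.12, adjusted p = 2.79e-05), a 1.51-fold lower level. *Bsnd* was at 76.5 to 121.5 CPM in UNT mice, with a median of 96.5 CPM, and at 28.2 to 63.1 CPM in PBS mice, with a median of 35.0 CPM. In CPM no PBS mouse reached the UNT range, and the log2 fold change was -1.31 (SE 0.11, adjusted p = 5.96e-13), a 2.47-fold lower level.

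Of the receptor genes, *Ptger3* was at 39.9 to 67.8 CPM in UNT mice, with a median of 44.7 CPM, and at 12.9 to 29.9 CPM in PBS mice, with a median of 18.6 CPM. The groups did not overlap, and the log2 fold change was -1.31 (SE 0.12, adjusted p = 2.06e-12), a 2.47-fold lower level. *Casr* was at 40.0 to 126.5 CPM in UNT mice, with a median of 57.7 CPM, and at 10.5 to 52.6 CPM in PBS mice, with a median of 33.8 CPM. It varied more among UNT mice than the other members, with a coefficient of variation of 39.4% beside 8.53% for *Kcnj1*. UNT mice 11 and 12, at 96.2 and 126.5 CPM, stood above the rest, and PBS mouse 9, at 10.5 CPM, below. The log2 fold change of *Casr* was -0.82 (SE 0.18, adjusted p = 6.42e-05), a 1.77-fold lower level.

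The numbering of libraries in the table names restarts to give 3 blocks, each with 3 or 4 mice of every group. Fitted alone, each block called all 6 genes lower in PBS than in UNT kidneys. The log2 fold changes over blocks were -2.49 to -1.88 for *Slc12a1*, -1.08 to -0.54 for *Umod*, -0.66 to -0.59 for *Kcnj1*, -1.54 to -1.10 for *Bsnd*, -1.77 to -1.01 for *Ptger3* and -1.35 to -0.55 for *Casr*. Under other settings the calls held but sizes moved by over 1.5 times for *Umod*, *Kcnj1* and *Casr*, to -0.49, -0.30 and -0.52 when scaled by library totals alone and to -1.24, -1.11 and -1.40 when the percentage of reads lacking a unique alignment entered the fit.

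**Figure D2:**
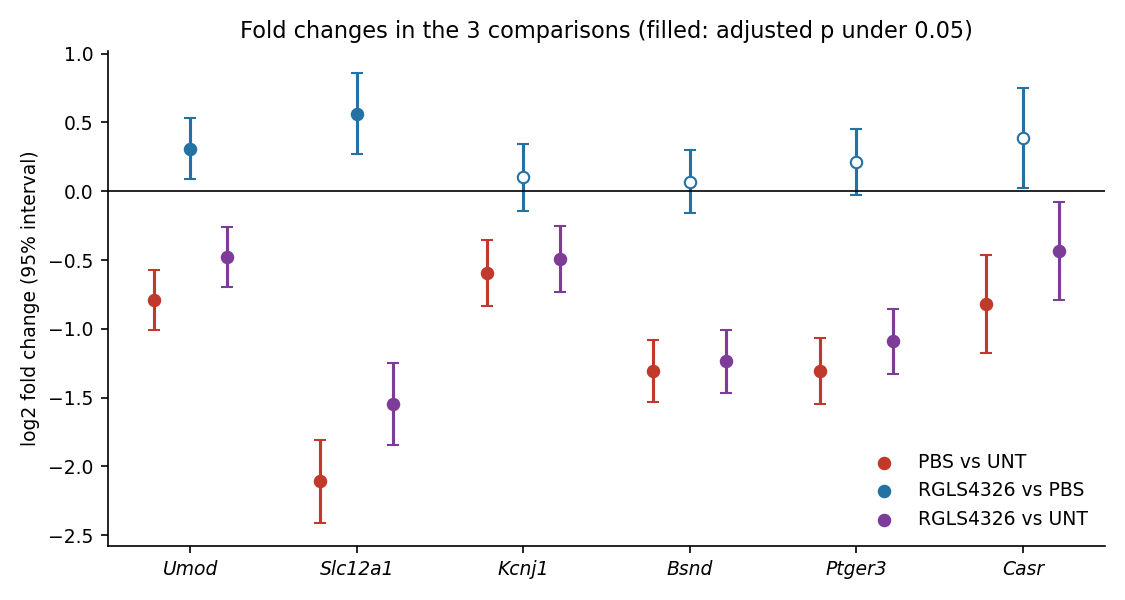
Log2 fold change of each gene with its 95% interval in PBS vs UNT, RGLS4326 vs PBS and RGLS4326 vs UNT, with filled points for an adjusted p under 0.05 (edgeR). All 6 genes are filled and below 0 in both comparisons with UNT, and in RGLS4326 vs PBS only *Slc12a1* (0.56) and *Umod* (0.31) are filled, above 0.

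The comparison of RGLS4326 with PBS asked whether treatment of *Pkd2*-KO mice moved these genes. *Slc12a1* and *Umod* were called higher with RGLS4326, and the other 4 genes were not called. Of all tested genes, 15.3% were called higher, 18.5% lower and 33.8% in either direction. In no member did the groups separate, and 0.0447% of all tested genes had every RGLS4326 mouse above every PBS mouse.

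*Slc12a1* was at 554.3 to 916.0 CPM in RGLS4326 mice, with a median of 620.5 CPM. All 11 treated mice were above the PBS mean of 443.2 CPM ± 140.6 (SD, n = 11), and 4 were above every PBS mouse. The log2 fold change was 0.56 (SE 0.15, adjusted p = 0.00643), a 1.48-fold higher level. *Umod* was at 2697 to 4201 CPM in RGLS4326 mice, with a median of 3812 CPM. Here 10 of 11 treated mice were above the PBS mean of 2904 CPM ± 637.6 (SD, n = 11), and 6 were above every PBS mouse. The log2 fold change was 0.31 (SE 0.11, adjusted p = 0.0294), a 1.24-fold higher level.

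*Casr* was at 37.0 to 53.6 CPM in RGLS4326 mice, with a median of 47.7 CPM. All 11 treated mice were above the PBS mean of 35.7 CPM ± 11.3 (SD, n = 11), but only 1 was above every PBS mouse. The coefficient of variation was 9.36% with RGLS4326 and 31.6% with PBS, a difference in spread that was not tested, and 20.9% in PBS mice without PBS mouse 9. The log2 fold change was 0.39 (95% interval 0.03 to 0.75, adjusted p = 0.0854) and was not called. *Ptger3* was at 18.5 to 33.8 CPM, with a median of 21.6 CPM, and 7 of 11 treated mice were above its PBS mean. Its log2 fold change was 0.21 (95% interval -0.03 to 0.46, adjusted p = 0.156).

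The channel genes were nearest to their PBS levels. *Kcnj1* was at 153.7 to 306.3 CPM, with a median of 199.9 CPM and a log2 fold change of 0.10 (95% interval -0.15 to 0.35, adjusted p = 0.53). *Bsnd* was at 30.6 to 61.7 CPM, with a median of 38.9 CPM and a log2 fold change of 0.07 (95% interval -0.16 to 0.30, adjusted p = 0.642). Treated mice lay on both sides of the PBS mean for both genes, 6 above it for *Kcnj1* and 5 for *Bsnd*.

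Both treatment calls were lost when the percentage of reads in no gene entered the fit, at log2 fold changes of 0.44 for *Slc12a1* (adjusted p = 0.129) and 0.35 for *Umod* (adjusted p = 0.114), where 89 of all tested genes were called in place of 5280. Within blocks, edgeR called 0 members, with 3, 0 and 2 at an unadjusted p under 0.05 in blocks 1, 2 and 3, and log2 fold changes of 0.48 to 0.70 for *Slc12a1* and 0.01 to 0.56 for *Umod*. Of all genes, 54 of 15737, 4065 of 15944 and 0 of 15676 were called in these blocks (2826 at an unadjusted p under 0.05 in block 3), so that in block 2 many genes but no member were called. With the block as a term both were called (adjusted p = 0.00409 and 0.0335). *Slc12a1* kept its call with each library left out in turn, and the call for *Umod* was lost without PBS mouse 2 (adjusted p = 0.0504), PBS mouse 3 (0.055), PBS mouse 11 (0.0593) or RGLS4326 mouse 1 (0.0521). *Ptger3* was called without PBS mouse 7, at 0.30 (adjusted p = 0.0358), and *Casr* without PBS mouse 8, at 0.46 (adjusted p = 0.0457).

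Set against UNT, all 6 genes were called lower in RGLS4326 kidneys. Of all tested genes, 36.9% were called lower, 40.8% higher and 77.7% in either direction. *Slc12a1* was at -1.55 (SE 0.15, adjusted p = 7.76e-12) in log2 fold change, *Bsnd* at -1.24 (SE 0.11, adjusted p = 3.14e-12) and *Ptger3* at -1.09 (SE 0.12, adjusted p = 1.98e-10). *Kcnj1* was at -0.49 (SE 0.12, adjusted p = 0.000335), *Umod* at -0.48 (SE 0.11, adjusted p = 0.000132) and *Casr* at -0.44 (SE 0.17, adjusted p = 0.0231). In CPM no RGLS4326 mouse reached the lowest UNT mouse in *Umod*, *Slc12a1*, *Bsnd* and *Ptger3*, as for 16.1% of all tested genes. As percentages of reads in genes, *Umod* reached 0.4383% in RGLS4326 mouse 1, above 0.3592% in UNT mouse 4. *Bsnd* was likewise at 0.006857% in RGLS4326 mouse 6 and 0.006133% in UNT mouse 10. *Casr* lost its call without UNT mouse 11 (-0.37, adjusted p = 0.0535) or 12 (-0.30, adjusted p = 0.0793) and was at -0.20 (adjusted p = 0.217) without both, a setting chosen after seeing the data. Scaling by library totals alone raised the median of all genes by 0.30 here, and *Umod* (-0.18, adjusted p = 0.102), *Kcnj1* (-0.19, adjusted p = 0.142) and *Casr* (-0.13, adjusted p = 0.497) were then not called. Other settings gave larger falls, down to -0.94 for *Umod*, -1.03 for *Kcnj1* and -1.01 for *Casr*, the last not called (edgeR, adjusted p = 0.0512).

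To compare members with each other independently of scaling between libraries, the reads of each gene were divided by those of *Slc12a1* in the same mouse and tested as log2 ratios (permutation tests of 100000 resamples, two-sided, adjusted over 24 tests). UNT mice had 2.21 to 3.37 *Umod* reads per *Slc12a1* read, with a median of 2.57. PBS mice had 5.77 to 9.15, with a median of 6.54, and RGLS4326 mice 3.72 to 7.02, with a median of 5.57. All UNT mice were below all *Pkd2*-KO mice of either group. The log2 ratio differed by 1.35 between PBS and UNT (permutation test, adjusted p = 3e-05) and by -0.29 between RGLS4326 and PBS (permutation test, adjusted p = 0.0156). An unadjusted p of 1e-05, as for PBS against UNT, is the smallest that these resamples can give.

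In PBS against UNT, every other member rose relative to *Slc12a1*. The log2 ratio differed by 1.52 (adjusted p = 3e-05) for *Kcnj1*, 1.31 (adjusted p = 3e-05) for *Casr*, 0.82 (adjusted p = 0.00012) for *Bsnd* and 0.82 (adjusted p = 0.000107) for *Ptger3*, all in permutation tests. *Slc12a1* therefore fell more than each of the other 5 members. Within blocks these differences were 1.19 to 1.46 for *Umod*, 1.31 to 1.86 for *Kcnj1*, 1.14 to 1.51 for *Casr*, 0.49 to 1.44 for *Bsnd* and 0.79 to 0.88 for *Ptger3*. The ranges of PBS and UNT mice did not overlap in any block except for *Bsnd* in block 2, at 0.51 (exact permutation p = 0.114), where 0.0286 is the smallest p that a block can give.

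In RGLS4326 against PBS, the channel genes and *Ptger3* were lower relative to *Slc12a1*. The log2 ratio differed by -0.53 (adjusted p = 0.000757) for *Bsnd*, -0.51 (adjusted p = 0.00123) for *Kcnj1* and -0.39 (adjusted p = 0.0167) for *Ptger3*, while *Casr*, at -0.14 (adjusted p = 0.278), was not called (permutation tests). Within blocks the differences were -0.49 to -0.13 for *Umod*, -0.59 to -0.46 for *Kcnj1*, -0.73 to -0.42 for *Bsnd* and -0.59 to -0.26 for *Ptger3*, below 0 in all 3 blocks, with exact permutation p from 0.0286 to 0.371 for single blocks, 3 of 12 of them under 0.05. Relative to *Umod* instead, neither *Kcnj1*, at -0.23 (adjusted p = 0.149), nor *Bsnd*, at -0.24 (adjusted p = 0.0817), nor *Ptger3*, at -0.10 (adjusted p = 0.416), was called (permutation tests).

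Transport genes of other segments were set beside *Slc12a1* in the same way. In PBS against UNT, *Slc34a1*, the phosphate transporter of the proximal tubule, differed from *Slc12a1* by -0.87 (adjusted p = 0.00022) in log2 ratio, and *Slc12a3*, the thiazide-sensitive cotransporter of the distal convoluted tubule, by -0.58 (adjusted p = 0.000992) (permutation tests). *Slc12a1* thus fell less than both of these. In block 3 alone the differences were -0.35 and -0.15 (exact permutation p = 0.171 and 0.629). *Aqp2*, the water channel of the collecting duct, was higher relative to *Slc12a1* by 3.29 (adjusted p = 3e-05) in a permutation test. Between RGLS4326 and PBS mice, *Slc34a1* at 0.15 (adjusted p = 0.433) and *Slc12a3* at 0.02 (adjusted p = 0.855) were not called, and *Aqp2* differed by -1.51 (adjusted p = 0.0034) (permutation tests).

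**Figure D3:**
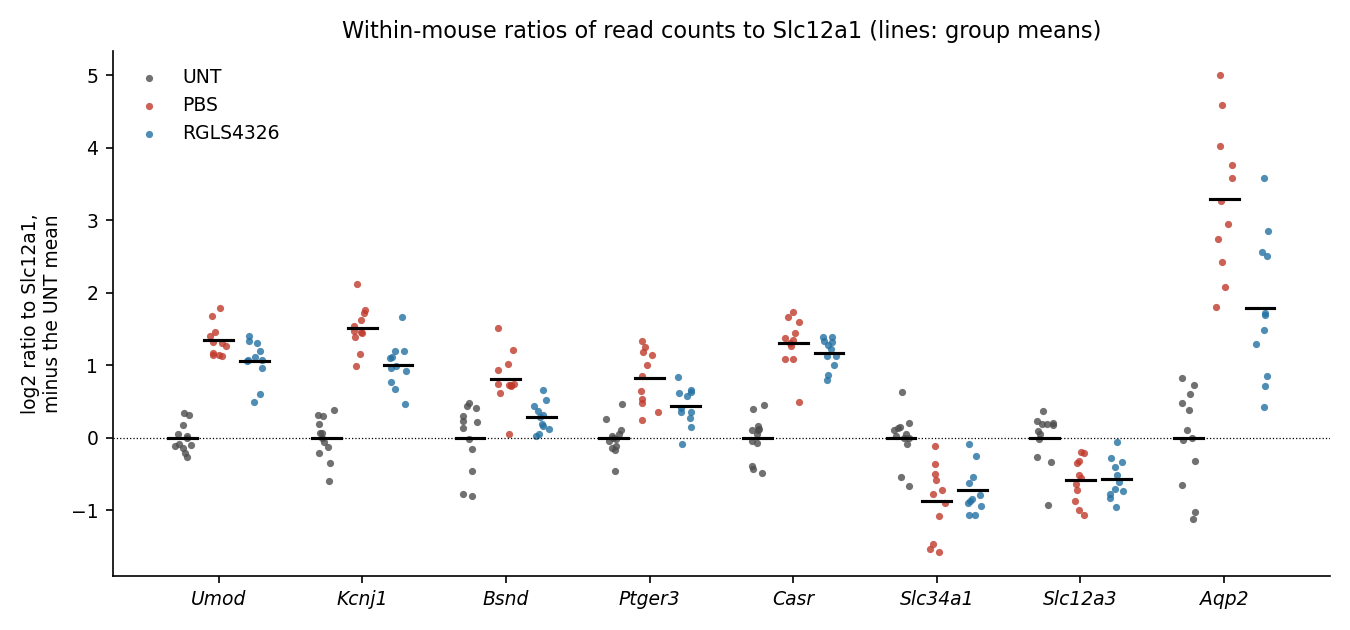
Log2 ratio of each gene's reads to *Slc12a1* reads within each mouse, relative to the UNT mean, 1 point per mouse, with a line at each group mean. PBS means lie above UNT for the 5 other members (by 0.82 to 1.52) and *Aqp2*, and below UNT for *Slc34a1* and *Slc12a3*.

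Another 41 genes of the segment, in 6 lists, were all tested. In PBS against UNT, 27 were called lower, 12 higher and 2 not, beside 39.0% lower and 43.1% higher of all tested genes. Their median log2 fold change was -0.83 beside 0.04 for all tested genes. In RGLS4326 against PBS, 6 were called higher, 7 lower and 28 not, with a median of 0.07 beside 0.00. These counts are close to the 15.3% higher and 18.5% lower of all tested genes. In RGLS4326 against UNT, 28 were called lower, 9 higher and 4 not, beside 36.9% lower and 40.8% higher of all tested genes. The same percentages stand beside the counts of single lists below.

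Among channels, pump subunits and exchangers, 9 of 10 genes were called lower in PBS than in UNT kidneys and 1 higher. *Fxyd2*, a subunit of the sodium pump, was at -1.64 and *Slc9a2*, a sodium/proton exchanger, at -0.86 in log2 fold change (adjusted p at most 9.52e-15 for both). With treatment, compared with PBS, 1 of these genes was called higher, 2 lower and 7 not. *Slc9a3*, an exchanger that proximal tubules also carry, was higher at 0.69 (adjusted p = 0.0147), and *Slc9a2* was lower at -0.17 (adjusted p = 0.0419).

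The paracellular list, of tight junction genes with *Tmem207*, had 4 genes called higher and 2 lower in PBS kidneys. *Cldn10*, a claudin of sodium passage, was at -1.68 and *Tmem207* at -3.40, while *Cldn16*, a claudin needed for magnesium reabsorption, was at 0.59 and *Cldn3* at 2.99 (adjusted p at most 1.39e-07 for these 4). *Tmem207* was at 22.4 to 47.5 CPM in UNT, 1.103 to 4.82 CPM in PBS and 3.68 to 7.22 CPM in RGLS4326 mice. *Cldn3* was at 5.08 to 11.8 CPM, 48.4 to 114.5 CPM and 29.9 to 70.0 CPM in the same order. Neither gene's UNT range was reached by a *Pkd2*-KO mouse. Between RGLS4326 and PBS mice, *Tmem207* at 0.79 (adjusted p = 0.00505) and *Cldn10* at 0.27 (adjusted p = 0.0493) were called higher, and *Cldn3* at -0.72 (adjusted p = 0.00306) and *Cldn16* at -0.27 (adjusted p = 0.0214) lower. Both comparisons use the same PBS mice, so these values are not independent of those against UNT.

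Of 13 regulators and hormone receptors, 7 were called lower and 5 higher in PBS kidneys, and *Nedd4l*, at -0.17 (adjusted p = 0.0502) and at 0.14 when scaled by library totals alone, was not called. The kinase genes *Wnk4* (-1.85) and *Wnk1* (-1.34), which regulate the salt cotransporters, and *Pth1r* (-1.70), the parathyroid hormone receptor, were lower, and *Maged2* (1.15), a gene of transient antenatal Bartter syndrome, was higher (adjusted p at most 3.82e-15 for these 4). With treatment, 1 was called higher, 2 lower and 10 not. *Wnk1* was higher at 0.35 (adjusted p = 0.00832). *Avpr2*, the vasopressin receptor that collecting ducts also carry, was lower at -0.62 (adjusted p = 0.012), as was *Stk39*, a kinase that phosphorylates NKCC2, at -0.21 (adjusted p = 0.0162).

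*Egf*, whose precursor the distal nephron makes, was at 2294 to 4992 CPM in UNT, 27.8 to 390.2 CPM in PBS and 164.8 to 469.8 CPM in RGLS4326 mice. Its log2 fold change of -4.44 (SE 0.37, adjusted p = 2.19e-13) in PBS against UNT was further from 0 than that of any member, and in RGLS4326 against PBS it was 1.09 (SE 0.33, adjusted p = 0.0135). *Hpn*, the protease hepsin that releases uromodulin from cells, was at -1.20 (adjusted p = 6.96e-14) and 0.07 (adjusted p = 0.571) in these comparisons. Of 3 macula densa genes, *Nos1* was lower at -1.37 (adjusted p = 5.31e-05), *Pappa2* higher at 0.55 (adjusted p = 0.0163) and *Ptgs2*, at 0.24 (adjusted p = 0.302), not called in PBS against UNT. All 3 were at low levels. *Nos1* had 7 to 62 reads in UNT and 1 to 37 reads in PBS mice, and *Pappa2* and *Ptgs2* were at means of 2.55 and 2.85 CPM in UNT mice. With RGLS4326 compared to PBS, *Nos1* was at 0.67 (adjusted p = 0.0846), *Pappa2* at 0.15 (adjusted p = 0.582) and *Ptgs2* at 0.08 (adjusted p = 0.795), so edgeR called 0 of 3, with 1 at an unadjusted p under 0.05 and 0 called by DESeq2.

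Among 7 transcription factor genes, 6 were called lower and 1 higher in PBS kidneys, with *Irx2* at -0.91, *Esrrb* at -1.88, *Esrrg* at -1.10 and *Tfap2b* at -1.02 (adjusted p at most 1.58e-10 for these 4). After RGLS4326, compared with PBS, 1 was called higher, *Esrrg* at 0.44 (adjusted p = 0.00752), with 1 lower and 5 not called. Exons of *Egf*, *Wnk4*, *Cldn3*, *Avpr2*, *Pth1r*, *Nos1* and *Nedd4l* overlap a gene on the opposite strand, with the same limit as for *Umod*. The limit also holds for *Slc34a1*, used in the ratios above, and for *Atp1b1* and *Cldn19*, named below. Exons of *Pappa2* and *Spp1* overlap a gene on the same strand.

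**Figure D4:**
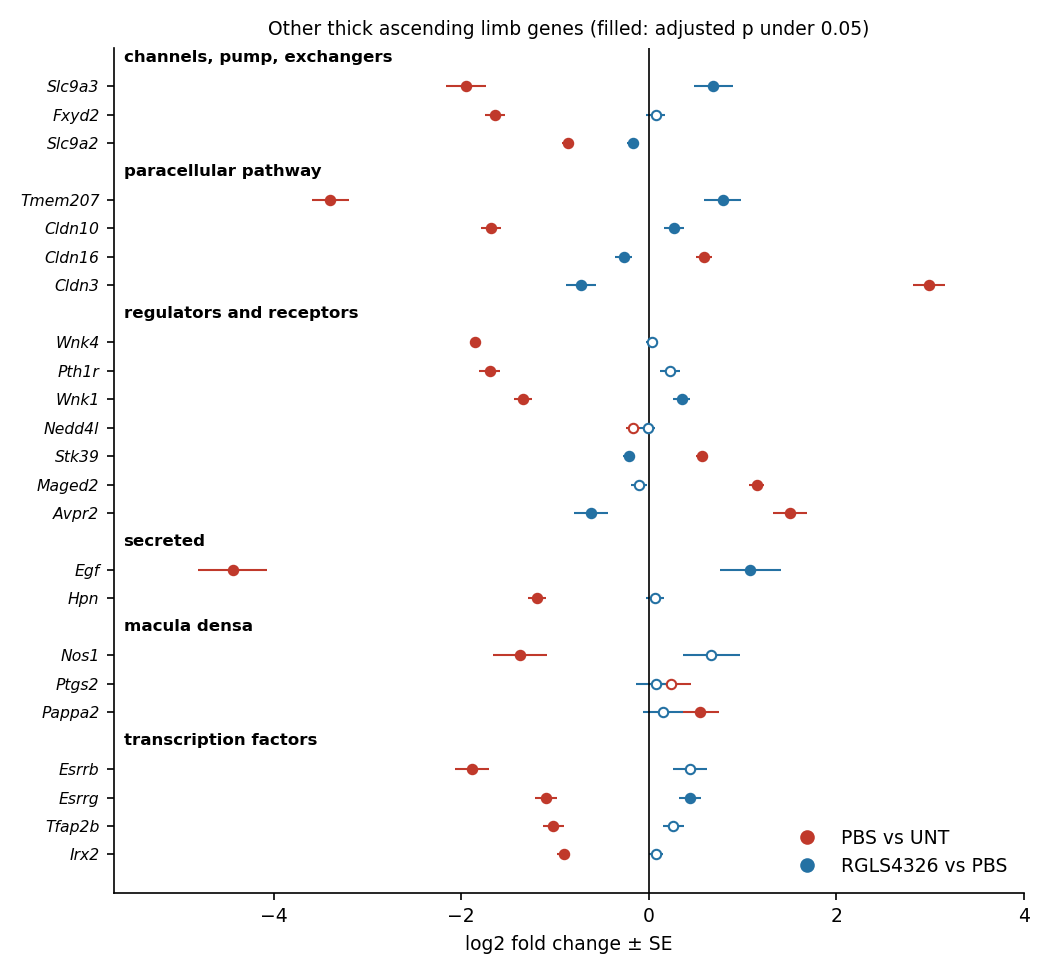
Log2 fold change ± SE of 23 of the 41 other genes of the segment by list, in PBS vs UNT and RGLS4326 vs PBS, with filled points for an adjusted p under 0.05 (edgeR). In PBS vs UNT 15 of these are called lower and 6 higher, from *Egf* (-4.44) to *Cldn3* (2.99), and in RGLS4326 vs PBS 5 lower and 6 higher.

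Markers of other tubule segments and cells moved with the groups as well. Over all tested genes, 39.0% were called lower and 43.1% higher in PBS against UNT, and 18.5% lower and 15.3% higher in RGLS4326 against PBS. In PBS against UNT, 10 of 10 proximal tubule markers (median log2 fold change -2.82) and 6 of 6 distal convoluted tubule markers (-2.09) were called lower, beside a median of -1.06 for the 6 members. All 8 principal cell (1.35), all 6 macrophage (4.13), all 6 fibroblast (2.14) and all 7 tubular injury markers (3.41) were called higher. The summed macrophage markers were at 81.8 to 133.2 CPM in UNT, 444.4 to 1008 CPM in PBS and 438.9 to 823.0 CPM in RGLS4326 mice, the summed fibroblast markers at 442.6 to 1135, 2490 to 5308 and 3285 to 4823 CPM, and the summed injury markers at 1779 to 3146, 15290 to 22370 and 10660 to 24380 CPM. The last of these sums is mostly *Spp1*, the gene of osteopontin, which was not called with treatment, at 0.17 (adjusted p = 0.293). No marker was at 0 throughout a group. Comparing RGLS4326 with PBS, 5 of 10 proximal (0.58) and 2 of 6 distal convoluted tubule markers (0.26) were called higher, and 5 of 8 principal cell (-0.49), 4 of 7 injury (-0.72) and 2 of 6 macrophage markers (-0.20) lower, beside a median of 0.26 for the members. Of 6 fibroblast markers edgeR called 0, with 0 at an unadjusted p under 0.05 and 0 called by DESeq2. The part of other cells in the members' values was not tested.

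Relations among mice were examined within each group in log2(CPM + 1), as 63 relations with permutation p adjusted over all of them. In the 11 PBS mice all 15 pairs of members had a positive Pearson's r, from 0.38 to 0.93, and 7 pairs were called by both Pearson's r and Spearman's rho. *Umod* and *Slc12a1* had r = 0.93 (adjusted permutation p = 0.0021) and rho = 0.90 (adjusted permutation p = 0.00961). Without the pair of mice farthest from the median of *Umod* r was 0.90, and with block means subtracted it was 0.93. *Kcnj1* and *Bsnd* had r = 0.83 (adjusted permutation p = 0.017) and rho = 0.83 (adjusted permutation p = 0.0176), with r of 0.76 without the pair farthest from the median of *Kcnj1* and 0.87 with block means subtracted. Levels of a mouse share its library and scaling, and single blocks hold too few mice for a value.

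In PBS mice members were low where *Lcn2* was high, the gene of NGAL and a marker of tubular injury. *Lcn2* was at 2.35 to 5.56 CPM in UNT, 528.7 to 1585 CPM in PBS and 289.6 to 1062 CPM in RGLS4326 mice. Against *Lcn2* in PBS mice, *Umod* had r = -0.92 (adjusted permutation p = 0.00378) and rho = -0.86 (adjusted permutation p = 0.00984), and *Slc12a1* had r = -0.90 (adjusted permutation p = 0.00556) and rho = -0.87 (adjusted permutation p = 0.00984). *Kcnj1* had r = -0.82 (adjusted permutation p = 0.0254) and rho = -0.81 (adjusted permutation p = 0.0224), and *Casr* had r = -0.70 (adjusted permutation p = 0.0241) and rho = -0.88 (adjusted permutation p = 0.00961). Without the pair of mice farthest from the median of *Lcn2*, r was -0.95, -0.94, -0.82 and -0.69 in the same order, and with block means subtracted -0.93, -0.90, -0.85 and -0.71. These 4 relations were called by both measures. The PBS mice were not evenly spread, with 6 mice up to 985.8 CPM of *Lcn2* and 5 from 1331 CPM upward, a split made after seeing the data. Within the 6 lower mice, r was -0.90 (exact permutation, unadjusted p = 0.0139) for *Umod*, -0.82 (exact permutation, unadjusted p = 0.0347) for *Slc12a1*, -0.34 (exact permutation, unadjusted p = 0.524) for *Kcnj1* and -0.75 (exact permutation, unadjusted p = 0.0833) for *Casr*, and rho was -0.83 (exact permutation, unadjusted p = 0.0583), -0.94 (exact permutation, unadjusted p = 0.0167), -0.60 (exact permutation, unadjusted p = 0.242) and -0.49 (exact permutation, unadjusted p = 0.356). None of these passed at 0.05 after adjustment over the 8 values (exact permutation test, adjusted p from 0.0667 to 0.524), while 3 of 8 had an unadjusted p under 0.05. The 5 higher mice were not tested apart and showed no steady decline. Among them PBS mouse 2 had the most *Lcn2* and also the most *Slc12a1* (384.1 CPM) and *Kcnj1* (174.7 CPM). *Umod* was highest in PBS mouse 4 (2645 CPM), and *Casr* in PBS mouse 3 (33.2 CPM), which had the least *Lcn2* of these 5. The pooled relations thus rest in part on the difference between both sides. *Bsnd* was called by r alone, with r = -0.76 (adjusted permutation p = 0.0318) and rho = -0.60 (adjusted permutation p = 0.139), and *Ptger3* by neither, with r = -0.49 (adjusted permutation p = 0.227) and rho = -0.45 (adjusted permutation p = 0.287).

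In the other groups 0 of 6 members were called against *Lcn2* by either measure, with 1 by r and 1 by rho at an unadjusted permutation p under 0.05 in RGLS4326 mice and 0 and 0 in UNT mice. In RGLS4326 mice *Umod* had r = 0.68 (adjusted permutation p = 0.0646) and rho = 0.66 (adjusted permutation p = 0.0947), and *Slc12a1* had r = -0.59 (adjusted permutation p = 0.133) and rho = -0.29 (adjusted permutation p = 0.485). Without the pair of mice farthest from the median of *Lcn2* r was 0.42 and -0.22, and with block means subtracted 0.59 and -0.61. In UNT mice, where *Lcn2* was low throughout, *Umod* had r = -0.30 (adjusted permutation p = 0.452) and rho = -0.32 (adjusted permutation p = 0.435), and *Slc12a1* had r = -0.23 (adjusted permutation p = 0.559) and rho = -0.32 (adjusted permutation p = 0.432). Without the pair farthest from the median of *Lcn2* r was -0.29 and -0.08. With block means subtracted, however, r in UNT mice was -0.64 for *Umod*, -0.89 for *Slc12a1*, -0.71 for *Casr* and 0.71 for *Bsnd*, so that the pooled values do not show an absence of relation within blocks. The values with block means subtracted were not tested. The difference of these relations between groups was not tested.

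**Figure D5:**
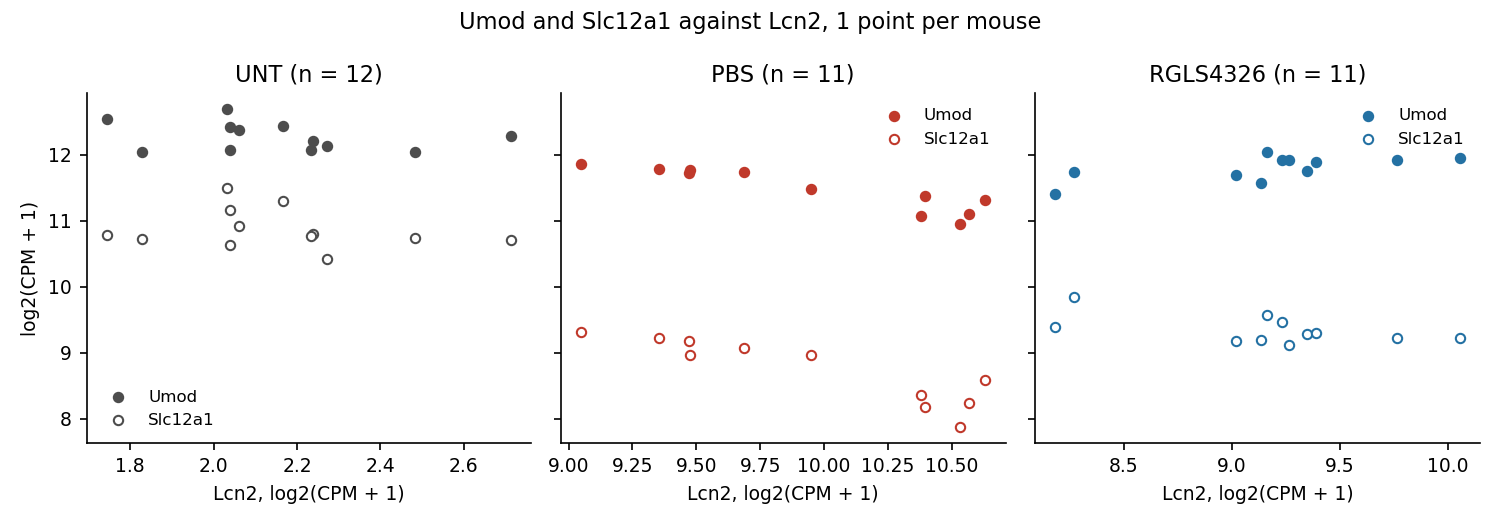
*Umod* and *Slc12a1* against *Lcn2* in log2(CPM + 1), in UNT (n = 12), PBS (n = 11) and RGLS4326 (n = 11) mice, 1 point of each gene per mouse, with horizontal scales that differ between panels. Over all PBS mice both genes are lower where *Lcn2* is higher, with r = -0.92 and -0.90, but not steadily so among the 5 mice with the most *Lcn2*.

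In the other groups fewer pairs of members were called, a difference that was not tested. In UNT mice 10 of 15 pairs had a positive r and 3 were called by both measures. *Slc12a1* and *Casr* had r = 0.80 (adjusted permutation p = 0.0204) and rho = 0.72 (adjusted permutation p = 0.0409), with r of 0.83 without the pair of mice farthest from the median of *Slc12a1* and 0.76 with block means subtracted. *Bsnd* ran against *Ptger3*, with r = -0.84 (adjusted permutation p = 0.00556) and rho = -0.78 (adjusted permutation p = 0.0224), and r of -0.80 and -0.83 under the same changes. *Slc12a1* ran against *Bsnd*, with r = -0.68 (adjusted permutation p = 0.047) and rho = -0.72 (adjusted permutation p = 0.0409), but r was -0.43 without the pair farthest from the median of *Slc12a1*, so it rests in part on those mice, and -0.75 with block means subtracted. In RGLS4326 mice 13 of 15 pairs had a positive r, and *Umod* and *Ptger3* alone were called by both, with r = 0.76 (adjusted permutation p = 0.0339) and rho = 0.86 (adjusted permutation p = 0.00984), and r of 0.80 and 0.61 under the same changes, while *Umod* and *Slc12a1* had r = 0.01 (adjusted permutation p = 0.977) and rho = 0.16 (adjusted permutation p = 0.755).

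As a description, the 3 tested genes most like each member were found by Pearson's r of log2(CPM + 1) over 34 libraries with group means subtracted. They were *Tm9sf2* (0.86), *Abat* (0.85) and *Atp1b1* (0.85) for *Umod*, *Slco4c1* (0.88), *Ppargc1a* (0.88) and *Slc16a7* (0.88) for *Slc12a1*, and *Car12* (0.78), *Apom* (0.77) and *Wfdc15b* (0.76) for *Kcnj1*. For *Bsnd* they were *Emx1* (0.86), *Slc35f2* (0.83) and *Cldn19* (0.82), for *Ptger3* *Rnf14* (0.79), *Folh1* (0.78) and *Arl15* (0.77), and for *Casr* *Fzd4* (0.94), *Pdpr* (0.93) and *Shank2* (0.93). Among members, *Slc12a1* ranked 64 in likeness to *Umod* (r of 0.75), *Casr* ranked 66 in likeness to *Slc12a1* (0.78) and *Kcnj1* ranked 47 in likeness to *Bsnd* (0.68). *Ptger3* and *Bsnd* had r of 0.06.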

How the data were processed

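Kidney polyA RNA was sequenced from TruSeq Stranded mRNA libraries. The authors deposited raw counts per gene, 1 table per library, made per the submitters' processing notes with Trim Galore, STAR, SAMtools 1.1 and HTSeq 0.6.1 on GRCm38 (mm10), with FastQC 0.11.2 and Picard 1.119. The annotation and strand setting of counting are not given in the sources used here. Summary lines of HTSeq, among them reads in no gene (4.94 to 12.0% of reads), were kept out of library sizes and tests. Members and gene lists were chosen with earlier results of these data known.

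Counts of all 3 groups entered 1 quasi-likelihood fit in edgeR 4.0.16 (R 4.3.3) with TMM scaling, the filterByExpr filter and no covariate. The same fit was also run on simulated counts, with an outcome not reported here. DESeq2 1.42.0, other scalings, filters, covariates, blocks and left-out libraries were alternatives. Ratios used log2(count + 0.5). Ratios and relations were tested by permutation with scipy 1.17.1, numpy 2.4.6 and pandas 2.3.3 (Python 3.11.15), and plotted with matplotlib 3.10.9. Named were the 6 members, up to 4 called genes of smallest p per segment list and comparison, uncalled genes of lists of 5 or fewer, and the 3 genes most like each member. Some genes that this rule names are not reported here. *Nedd4l* in PBS against UNT, *Egf*, *Tmem207* and *Cldn3* by their levels, *Spp1* and *Lcn2* were singled out after their values were seen.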

Additional observations from a re-analysis of the deposited data

How the results depend on the processing

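The fall of all 6 genes in PBS against UNT was called under every alternative run for those tests, including each of 34 libraries left out in turn, with log2 fold changes of -2.49 to -1.80 for *Slc12a1*, -1.24 to -0.49 for *Umod*, -1.11 to -0.30 for *Kcnj1*, -1.90 to -1.02 for *Bsnd*, -1.77 to -0.94 for *Ptger3* and -1.40 to -0.52 for *Casr*, and no member changed direction under another scaling. The treatment comparison was less stable. In RGLS4326 against PBS, edgeR called 0, 0 and 0 members in blocks 1, 2 and 3 fitted alone, with 3 or 4 mice a group, and 0 when the percentage of reads in no gene entered the fit as a covariate (3, 0, 2 and 2 at an unadjusted p under 0.05), and 1 to 3 with 1 library left out. Of the 41 other segment genes it called 2, 5 and 0 in the blocks and 0 with the covariate (4 in block 3 and 10 with the covariate at an unadjusted p under 0.05). Of all genes it called 54 in block 1, 4065 in block 2, 0 in block 3 (2826 at an unadjusted p under 0.05) and 89 with the covariate. That percentage differs between groups, and the cause of the lost calls was not tested. The sign turned for *Bsnd*, at -0.067 in block 3 and from -0.000393 to 0.158 with 1 library left out (below 0 without RGLS4326 mouse 6), and for *Ptger3*, at -0.12 in block 2, none of them called. With *Umod* as the reference gene, 2 of 8 within-mouse ratios were called in RGLS4326 against PBS, in place of 5. When the percentage of reads lacking a unique alignment entered the fit, 7339 genes were called in PBS against UNT and 7317 in RGLS4326 against UNT. Library totals alone left 3 members called in RGLS4326 against UNT, and gave 8970 genes higher and 4099 lower in PBS against UNT and 9148 higher and 3471 lower in RGLS4326 against UNT, against 6746 and 6095, and 6385 and 5772, with TMM. In blocks 1, 2 and 3, 4, 6 and 4 members were called in RGLS4326 against UNT, beside 11145 of 15737, 10235 of 15944 and 8743 of 15676 genes. *Umod* was lost in block 1, at -0.28 (adjusted p = 0.118), and *Kcnj1* in block 3, at -0.51 (adjusted p = 0.0694). *Casr* was lost in both of these blocks, at -0.07 (adjusted p = 0.663) and -0.85 (adjusted p = 0.0795). It was also lost with either covariate, at -0.35 (adjusted p = 0.124) with reads in no gene and at -1.01 (adjusted p = 0.0512) with reads lacking a unique alignment. The labels do not say whether replicate numbers pair the mice, and the fits did not pair them. Same-numbered mice deviated together (correlation over 0.1) in 1, 5 and 3 of 11 pairs in PBS and UNT, RGLS4326 and PBS, and RGLS4326 and UNT. In each comparison 1 mouse was most like its own number. Correlations over 0.1 were not counted for differently numbered mice, so these counts cannot settle pairing. With a replicate block, 6, 3 and 5 members and 12781, 5098 and 12162 genes were called in PBS against UNT, RGLS4326 against PBS and RGLS4326 against UNT. *Casr* was then called in RGLS4326 against PBS, at 0.45 (adjusted p = 0.0343), and not in RGLS4326 against UNT, at -0.26 (adjusted p = 0.138). The labels number the libraries of a group without naming litters, so p-values measure the spread between these libraries.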

Other observations

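Markers of further cell types were counted in the same fits, with the same percentages over all tested genes as for the markers above. In PBS against UNT, 3 of 4 thin limb, 4 of 6 intercalated cell, 4 of 5 podocyte, 3 of 5 endothelial and 1 of 6 lymphocyte markers were called lower, and 1, 1, 1, 2 and 3 higher. In RGLS4326 against PBS, 4 of 5 podocyte and 4 of 5 endothelial markers were called higher, and 1 of 4 thin limb, 2 of 6 intercalated cell and 3 of 6 lymphocyte markers lower. The thin limb list shares 1 gene with the channel list and *Aqp1* with the proximal tubule list, and the principal cell list shares *Avpr2* with the regulators. The 6 members summed to 6317 to 10050 CPM in UNT, 2436 to 4743 CPM in PBS and 3667 to 5245 CPM in RGLS4326 mice, a sum that is mostly *Umod*.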
